A study of Mus musculus with 6 samples.

Results

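The genes of DNA replication and cell division were examined in livers of mice kept on 2 diets that differ in cholesterol supply. The set was a fixed list of 42 symbols, 20 for replication at the G1/S transition and 22 for mitosis at the G2/M transition, of which 41 were measured by a probe set annotated to a single gene, among 19938 genes measured in all. Ccnb1 was the member without such a probe set. Liver RNA of male mice of the inbred strain C57BL/6 was hybridised to 6 Affymetrix Mouse Gene 1.0 ST arrays, 3 per diet. Mice were 6 weeks old per the labels, and all of them had 1 week of acclimatization on chow. The cholesterol group (CH1 to CH3) received chow with 1% cholesterol by weight, and the lovastatin and ezetimibe group (LE1 to LE3) received chow with 100 mg lovastatin and 21 mg ezetimibe per 100 g. Lovastatin inhibits the reductase early in cholesterol synthesis, and ezetimibe blocks intestinal cholesterol uptake. A chow group named in the labels is not analysed here, so the direction of a difference does not say which diet departed from chow. The labels call the arrays biological replicates without tying each to an animal, and p-values therefore measure the spread between arrays, which may be partly technical.

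Adult hepatocytes are mostly quiescent and divide when tissue is lost or when growth signals reach them. Entry into S phase follows cyclin D and cyclin E kinase activity, which releases E2F factors onto the promoters of replication genes. The MCM helicase is loaded at origins by CDC6 and CDT1 and is switched on by CDC45, the GINS complex and MCM10. The genes of mitosis are switched on later by FOXM1 and B-MYB, through promoter elements called the CHR (cell cycle genes homology region) and CCAAT boxes, and are held off in resting cells by the DREAM complex.

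With lovastatin and ezetimibe, 11 of the 41 genes were lower, 1 was higher and 29 did not pass the test. A gene passed at a Benjamini-Hochberg adjusted p below 0.05 in limma's moderated test over all genes on the log2(intensity + 1) scale. Over all genes 5.08% were called lower and 7.01% higher, against 26.8% lower and 2.44% higher among the 41. The 41 were chosen with earlier results of these data known, so their share was not tested as a set. Among further replication genes and further mitosis genes, described below, 4.55% and 4.35% were lower, near the share of all genes. Of the 20 replication genes 5 fell and 1 rose, and of the 21 mitosis genes 6 fell and 0 rose. An unadjusted p below 0.05 in limma was found for 10 of the 21, beside 4941 of all 19938 genes. The median difference, always lovastatin and ezetimibe minus cholesterol, was -0.16 for the 41 genes, -0.14 for replication and -0.20 for mitosis, beside -0.005 over all genes. Tk1 fell the most, by 1.09 on the log2 scale, and Ccnd1, the cyclin D1 gene, was the member that rose, by 0.70.

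**Figure D1:**
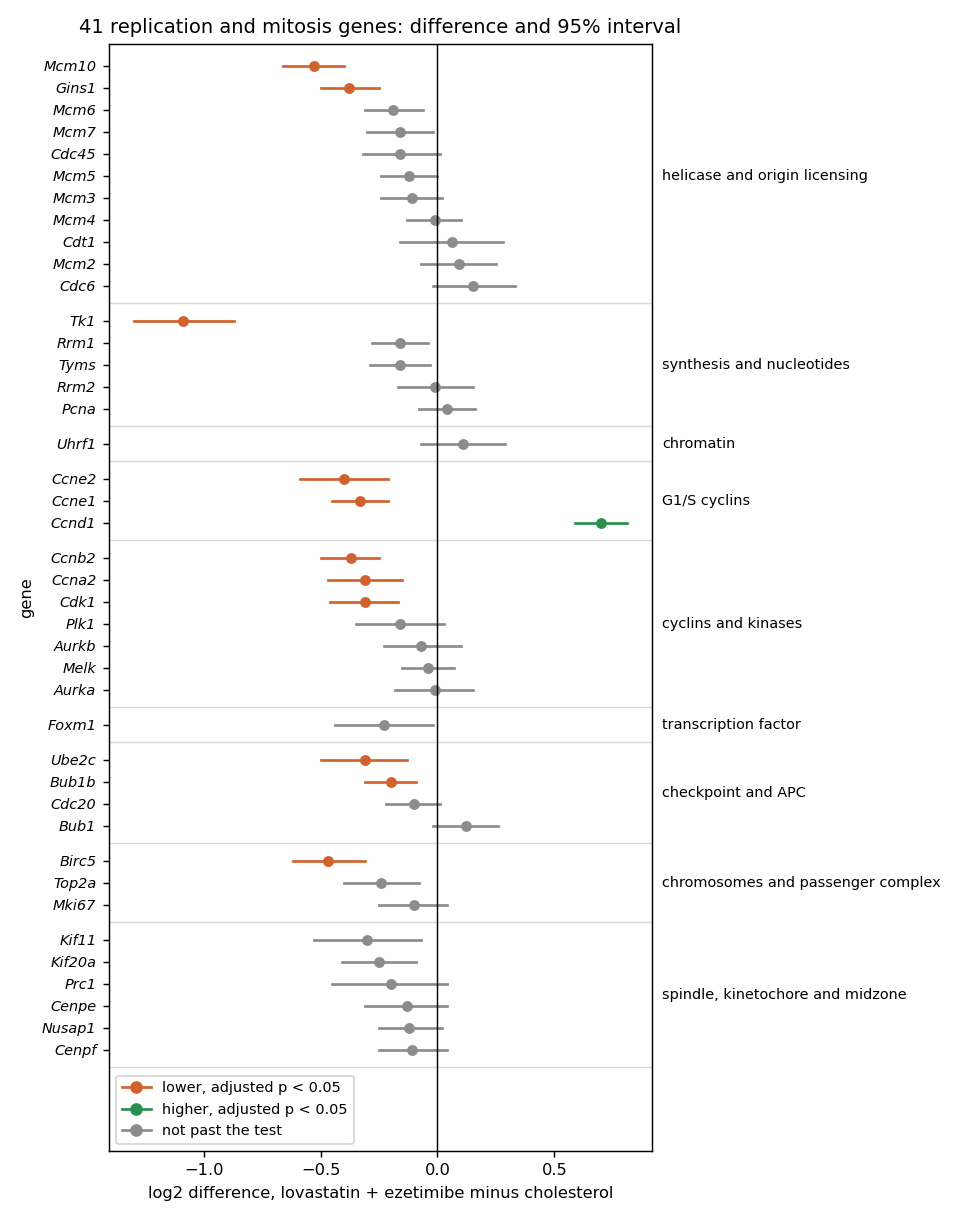
Log2 difference (x axis) of each of the 41 genes (y axis), grouped by role, with its 95% interval from limma, n = 3 arrays per group. Colours mark genes that passed the test; 34 of the 41 points lie below 0, Tk1 lies farthest to the left at -1.09, and Ccnd1 stands alone on the right at 0.70.

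Promoter sequences are shown for 6 genes that fell and for Mcm6, a replication gene with E2F words that did not pass. RefSeq promoter windows of build GRCm38.p6, from 250 bases before to 50 after the transcript start, were found for 33 of the 41 measured genes and for 8 of the 12 that passed. Each line gives the 150 bases before the start, 5′ to 3′ on the gene's own strand. Capitals mark exact matches on either strand. The CHR words searched were TTTGAA and, as the variant form of this element, TTCGAA. The other words were the CCAAT box and, for E2F, the words TTTCCCGC, TTTCGCGC, TTTGCCGC and TTTGGCGC.
Cdk1 (chr10:69352913-69353062, minus strand): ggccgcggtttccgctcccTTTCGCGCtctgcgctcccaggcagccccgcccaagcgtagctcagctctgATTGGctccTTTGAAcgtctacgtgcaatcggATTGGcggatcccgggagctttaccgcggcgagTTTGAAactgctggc
Ccnb2 (chr9:70421555-70421704, minus strand): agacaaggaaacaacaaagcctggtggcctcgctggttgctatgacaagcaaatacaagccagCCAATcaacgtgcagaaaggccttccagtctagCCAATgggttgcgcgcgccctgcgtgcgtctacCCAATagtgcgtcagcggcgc
Ube2c (chr2:164769779-164769928, plus strand): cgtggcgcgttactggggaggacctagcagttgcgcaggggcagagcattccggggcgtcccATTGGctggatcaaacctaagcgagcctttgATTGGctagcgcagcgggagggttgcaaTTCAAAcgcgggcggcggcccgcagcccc
Birc5 (chr11:117849087-117849236, plus strand): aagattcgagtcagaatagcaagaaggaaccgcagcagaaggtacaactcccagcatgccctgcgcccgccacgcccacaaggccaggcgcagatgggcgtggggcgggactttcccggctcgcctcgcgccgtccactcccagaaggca
Mcm10 (chr2:5012792-5012941, minus strand): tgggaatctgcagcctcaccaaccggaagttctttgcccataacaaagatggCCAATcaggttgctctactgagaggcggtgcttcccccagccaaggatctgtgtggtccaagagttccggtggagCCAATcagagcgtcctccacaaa
Tk1 (chr11:117826015-117826164, minus strand): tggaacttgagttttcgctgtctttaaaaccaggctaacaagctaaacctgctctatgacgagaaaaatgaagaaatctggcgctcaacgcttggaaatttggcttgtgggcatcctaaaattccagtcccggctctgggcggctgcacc
Mcm6 (chr1:128359706-128359855, minus strand): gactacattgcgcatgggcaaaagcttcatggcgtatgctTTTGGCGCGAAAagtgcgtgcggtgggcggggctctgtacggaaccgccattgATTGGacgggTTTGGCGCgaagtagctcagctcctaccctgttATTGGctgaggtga

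Mitosis and replication genes differed in the words they held. A CHR word was found in 73.7% of the 19 windows of mitosis genes (Ccnb1 included), in 16.7% of the 18 windows of replication genes and in 19.2% of all 32851 promoter windows. A CCAAT box was in 84.2%, 72.2% and 37.4% of the same windows, and an E2F word in 5.26%, 38.9% and 2.26%. In the printed stretches Cdk1 has 2 CHR words, 2 CCAAT boxes and 1 E2F word, and Ube2c has 1 CHR word and 2 CCAAT boxes. Ccnb2 has 3 CCAAT boxes there, and its CHR words begin 167 bases before the start and at base 5 after it, outside the stretch shown. Mcm10 has 2 CCAAT boxes, while Tk1 and Birc5 have no match to these words in their windows.

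CHR words were found both in genes that fell and in genes that did not pass. Of the 13 mitosis genes with a CHR word, 4 fell (Cdk1, Ccnb2, Ube2c and Bub1b) and 9 did not pass. Among all measured mitosis genes 28.6% fell, and among all genes 5.08%. Of the 7 replication genes with an E2F word, 0 fell and 7 did not pass: Cdc6, Cdt1, Mcm3, Mcm5, Mcm6, Mcm7 and Uhrf1. A match describes the letters of a window and shows no binding, and overlapping words on both strands, as in Mcm6, run together in capitals.

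Origin licensing and the helicase held 2 of 11 genes that fell and 9 that did not pass. The share that fell was 18.2%, beside 26.8% of the 41 and 5.08% of all genes. Differences between the roles were not tested. Mcm10, which helps to start unwinding at origins, read 8.78, 8.67 and 8.71 in CH1 to CH3 and 8.22, 8.13 and 8.22 in LE1 to LE3. All LE arrays lay below all CH arrays. Mcm10 fell by 0.53 (SE 0.06, n = 3 per group), which is 30.7% lower (limma adjusted p = 6.47e-04). Gins1, a subunit of the GINS complex of the active helicase, read 7.02, 7.07 and 7.01 in the cholesterol arrays and 6.67, 6.58 and 6.71 in the others. Every LE array was below every CH array, and Gins1 fell by 0.38 (SE 0.05, adjusted p = 0.00321).

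The 6 subunits of the MCM2-7 ring and the other licensing genes showed smaller differences. Mcm6 was at -0.19 (95% interval -0.31 to -0.06, adjusted p = 0.0671), Mcm7 at -0.16 (-0.30 to -0.02), Mcm5 at -0.12, Mcm3 at -0.11, Mcm4 at -0.01 and Mcm2 at 0.09. The arrays of the 2 diets did not overlap for Mcm3, Mcm5, Mcm6 and Mcm7, all lower, and did for Mcm2 and Mcm4. Over all genes, 14.7% had all 3 LE arrays below the CH arrays. The loading factors Cdc6 (0.15, -0.02 to 0.33) and Cdt1 (0.06, -0.16 to 0.28) and the helicase activator Cdc45 (-0.16, -0.32 to 0.01) overlapped between diets. Mcm6 and Mcm7 passed after quantile normalisation (adjusted p = 0.0383 and 0.0297), where the range over all alternatives was 0.0249 to 0.225 for Mcm6 and 0.0297 to 0.361 for Mcm7. Mcm6 passed in 4 of 16 alternatives and Mcm7 in 2.

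Among the genes of DNA synthesis and nucleotide supply, 1 of 5 fell (20.0%, beside 26.8% of the 41 and 5.08% of all genes). Tk1, thymidine kinase of the salvage pathway, read 9.72, 9.60 and 9.82 on the cholesterol diet and 8.78, 8.64 and 8.46 with lovastatin and ezetimibe. No LE array came near the CH arrays, and Tk1 was 2.12-fold lower (-1.09, SE 0.09, adjusted p = 2.22e-04). A second, dimmer probe set for Tk1 read 9.22, 9.25 and 9.12 against 8.55, 8.63 and 8.63, a smaller fall of 0.59 (SE 0.06). In RefSeq the Tk1 gene overlaps Afmid, the arylformamidase gene of tryptophan breakdown. Afmid itself fell by 0.39 (SE 0.06, adjusted p = 0.00429), from a mean of 12.34 (SD 0.04, n = 3) to 11.95 (SD 0.08, n = 3), and its part in the Tk1 values was not tested.

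The other genes of synthesis and nucleotide supply did not pass. Rrm1, the large subunit of ribonucleotide reductase, was at -0.16 (95% interval -0.28 to -0.04, adjusted p = 0.0857), and Tyms, thymidylate synthase, at -0.16 (-0.29 to -0.03, adjusted p = 0.114). Neither passed, and in both every LE array was below every CH array, as in 14.7% of all genes. Rrm2, the reductase's small subunit, was at -0.01 (-0.17 to 0.15) and Pcna, the sliding clamp of the polymerases, at 0.04 (-0.08 to 0.16). A second Pcna probe set gave 0.03. Uhrf1, which guides maintenance methylation of new DNA strands, was at 0.11 (-0.07 to 0.29) with overlapping groups. After quantile normalisation Rrm1 and Tyms passed with Mcm6 and Mcm7, Ccne2 did not, and 8 replication genes rather than 5 were called lower. Rrm1 passed in 4 of 16 alternatives (adjusted p 0.0155 to 0.278 over all) and Tyms in 4 of 16 (0.0286 to 0.333).

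The G1 cyclins went in opposite directions. Ccnd1, whose product links growth signals to cell cycle entry, read 9.85, 9.88 and 9.85 in the cholesterol arrays and 10.59, 10.53 and 10.57 in the LE arrays. All LE arrays were above all CH arrays, as in 15.9% of all genes, and the spread within each group was at most 0.03 (SD). Ccnd1 rose 1.63-fold (0.70, SE 0.05, adjusted p = 5.28e-05). LTO1, a gene that overlaps Ccnd1 in RefSeq, was at -0.04 (SE 0.05).

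Both cyclin E genes fell. Ccne1 read 7.81, 7.83 and 7.71 against 7.45, 7.49 and 7.44, a fall of 0.33 (SE 0.05, adjusted p = 0.00592). Ccne2 read 6.36, 6.20 and 6.49 against 5.93, 6.05 and 5.87, a fall of 0.40 (SE 0.08, adjusted p = 0.0190). The diets did not overlap for either gene, but the Ccne2 arrays were more scattered and dim. The Ccne2 call was lost without CH1, LE1 or LE3, after quantile normalisation and after cyclic loess (adjusted p 0.00490 to 0.0772 over all alternatives). Ints8, which overlaps Ccne2 in RefSeq, was at -0.05 (SE 0.05).

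**Figure D2:**
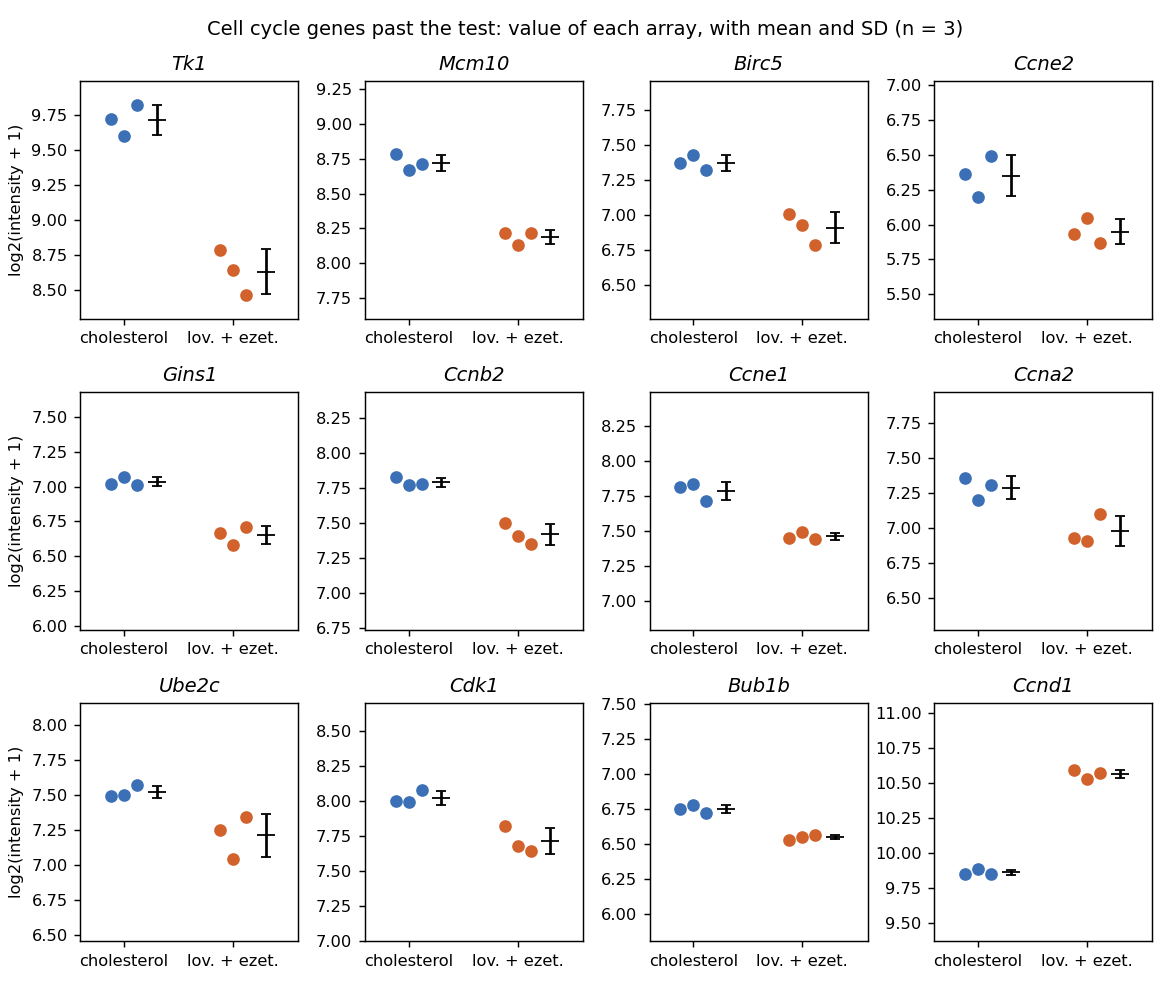
Values of the 12 genes that passed the test, 1 panel per gene, as log2(intensity + 1) of each array (y axis, equal span in all panels) by diet (x axis; lov. + ezet. is lovastatin and ezetimibe). Points are arrays, and bars are the mean and SD of 3 arrays. The groups do not overlap in any panel, and Ccnd1 is the panel with the higher LE values. The genes were picked by a test on these same values, so the lack of overlap is no further support.

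Of the mitotic cyclins and kinases, 3 of 7 measured genes fell (42.9%, beside 26.8% of the 41 and 5.08% of all genes). Ccnb2, a B-type cyclin, read 7.83, 7.77 and 7.78 on cholesterol and 7.50, 7.41 and 7.35 with lovastatin and ezetimibe, a fall of 0.37 (SE 0.06, adjusted p = 0.00395). Cdk1, the kinase that B-type cyclins activate, read 8.0, 7.99 and 8.08 against 7.82, 7.68 and 7.64, a fall of 0.31 (SE 0.06, adjusted p = 0.0161). Ccna2, the S and G2 phase cyclin, read 7.36, 7.20 and 7.31 against 6.93, 6.91 and 7.10, a fall of 0.31 (SE 0.07, adjusted p = 0.0258). The 3 genes were lower in every LE array than in any CH array, with LE3 nearest for Ccna2 and LE1 nearest for Ccnb2 and Cdk1. The Cdk1 call was lost without CH3, LE2 or LE3 (adjusted p 0.00150 to 0.0657 over all alternatives), and the Ccna2 call without CH1, CH3, LE1 or LE2 (0.00601 to 0.0953). Exosc9, which overlaps Ccna2 in RefSeq, was at 0.13 (SE 0.06, adjusted p = 0.228), with all LE arrays above the CH arrays.

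None of the 4 other kinases passed, with 0 of the 4 at an unadjusted p below 0.05 in limma. Plk1, the polo-like kinase of mitotic entry, was at -0.16 (95% interval -0.35 to 0.03), Aurkb, the kinase of the chromosomal passenger complex, at -0.07 (-0.23 to 0.10), Melk at -0.04 (-0.15 to 0.07) and Aurka, the spindle pole kinase, at -0.01 (-0.18 to 0.15). The diets overlapped for all 4. LE1 read 7.15 for Plk1, as high as the cholesterol arrays (7.08, 7.13 and 7.15), while LE2 and LE3 read 6.86 and 6.88, and without LE1 Plk1 was at -0.25 (adjusted p = 0.0382; 0.0382 to 0.567 over all alternatives). Foxm1, the transcription factor of this group, read 6.65, 6.94 and 6.63 against 6.59, 6.52 and 6.42. All LE arrays lay below the CH arrays, as in 14.7% of all genes. CH2 stood above the rest, and the Foxm1 difference of -0.23 (SE 0.09) did not pass (adjusted p = 0.167).

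In the spindle checkpoint and the anaphase-promoting complex, 2 of 4 genes fell. Ube2c, the ubiquitin-conjugating enzyme that starts cyclin destruction, read 7.49, 7.50 and 7.57 against 7.25, 7.04 and 7.34, a fall of 0.31 (SE 0.08, adjusted p = 0.0429). Bub1b, which encodes the checkpoint protein BUBR1, read 6.75, 6.78 and 6.72 against 6.53, 6.55 and 6.56, a fall of 0.20 (SE 0.05, adjusted p = 0.0298). These were the 2 members closest to the threshold from within. Leaving out any 1 array ended the Bub1b call, as did both tests that model variance by brightness (adjusted p 0.0168 to 0.111 over all alternatives), and leaving out any array other than LE3 ended the Ube2c call (0.00529 to 0.117). Cdc20, the activator of the complex, was at -0.10 (95% interval -0.22 to 0.01), and the checkpoint kinase Bub1 was the mitosis gene above 0, at 0.12 (-0.02 to 0.26).

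Birc5, which encodes survivin of the chromosomal passenger complex, fell the most among the mitosis genes. It read 7.37, 7.43 and 7.32 on cholesterol and 7.01, 6.93 and 6.79 with lovastatin and ezetimibe. All LE arrays were lower, and the fall of 0.47 (SE 0.07, adjusted p = 0.00369) left Birc5 27.6% lower. Top2a, the topoisomerase that untangles chromosomes, read 6.56, 6.47 and 6.64 against 6.26, 6.26 and 6.43 and was at -0.24 (95% interval -0.40 to -0.08, adjusted p = 0.0641). Its LE arrays all lay below its CH arrays, as in 14.7% of all genes. A dimmer second Top2a probe set was at -0.37 (SE 0.15), also not past the test. Top2a was called lower in 3 of 15 alternatives: the mean of its probe sets (-0.31, adjusted p = 0.0404), median centring and without LE3. The adjusted p was 0.0404 to 0.189 over all 15. Mki67, the source of the Ki-67 proliferation marker, was at -0.10 (-0.25 to 0.04) with overlapping groups.

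None of the 6 genes of the spindle, kinetochore and midzone passed. An unadjusted p below 0.05 in limma was found for 2 of the 6, beside 4941 of all 19938 genes. Some alternatives called 3 of them: Kif20a in 5 of 15 (after quantile normalisation, median centring, cyclic loess, a pseudocount of 16 or without LE1; adjusted p 0.0197 to 0.177 over all 15), Kif11 in 3 (intensity trend, cyberT-like test or without LE3; 0.0247 to 0.274) and Prc1 in 1 (without CH1; 0.0412 to 0.543). All 6 were below 0, from -0.11 for Cenpf to -0.30 for Kif11. Kif20a, a kinesin of the central spindle, read 6.77, 6.68 and 6.71 against 6.61, 6.40 and 6.41, a difference of -0.25 (95% interval -0.41 to -0.09, adjusted p = 0.0576). It lay closest to the threshold from outside, followed by Top2a. Kif11, the motor that separates spindle poles, read 7.06, 6.85 and 6.94 against 6.48, 6.64 and 6.85, a difference of -0.30 (-0.53 to -0.07, adjusted p = 0.108). LE3 and CH2 read the same to 2 decimals for Kif11, while LE1 was well below. Prc1, the bundler of midzone microtubules, was at -0.20, the kinetochore motor Cenpe at -0.13 and the spindle protein Nusap1 at -0.12, all with overlapping groups.

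The stability of the 12 calls differed. Tk1, Mcm10, Birc5, Ccnb2, Ccne1, Gins1 and Ccnd1 passed in every one of the 16 alternatives that measured them, with Gins1 measured in 15. The other 5, Ccne2, Ccna2, Cdk1, Bub1b and Ube2c, each lost the call when some array was left out. The number of members that fell was 7 without CH3 and 7 without LE2, and the number of mitosis genes that fell was 2 in both cases.

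Many of these genes were dim. Detection calls were not used here, and 1190 olfactory and vomeronasal receptor genes, taken as genes that liver does not use, served as a mark of what a dim probe set reads. Their median level was 5.44, and 95% of them lay below 6.88. Of the 41 members 28 were brighter than 95% of the receptor genes, among them 17 of 20 replication genes and 11 of 21 mitosis genes, and none of the 6 spindle, kinetochore and midzone genes. Of the genes that fell, Ccne2 was brighter than 78.8% of the receptor genes, Bub1b than 91.5% and Gins1 than 94.3%.

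The receptor genes were themselves slightly lower with lovastatin and ezetimibe. Their median difference was -0.09, with 54 called lower and 1 higher, that is 4.54% lower. The mitosis genes lay at a median of -0.20 beside this shift, and its part in their differences was not tested. After quantile normalisation the receptor median was -0.05 and the median of the 41 genes -0.17. After cyclic loess between arrays, an alternative chosen after seeing the data, they were -0.05 and -0.16. Among the 15655 genes with a mean level within the range of the members, 5.49 to 10.21, 3.60% were called lower.

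**Figure D3:**
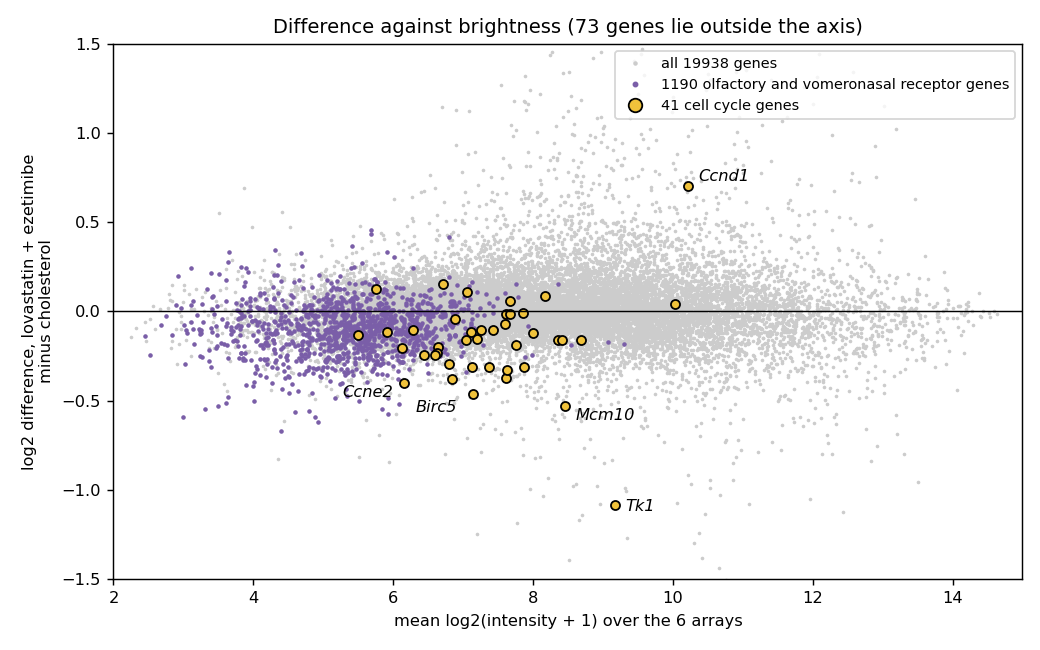
Log2 difference (y axis) against mean log2(intensity + 1) over the 6 arrays (x axis) for all 19938 genes (grey), the 1190 receptor genes (purple) and the 41 cell cycle genes (yellow); 73 genes lie outside the y axis. Most of the yellow points sit between 6 and 9 on the x axis and below 0, the receptor genes centre on -0.09, and Tk1 (-1.09) and Ccnd1 (0.70) are the yellow points farthest from 0.

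Of 44 further replication genes 39 were not past the test, 3 rose (6.82%) and 2 fell (4.55%), near the 7.01% and 5.08% of all genes, with a median of -0.05. Pold2, an accessory subunit of DNA polymerase delta, read 9.30, 9.20 and 9.35 on cholesterol and 10.21, 10.16 and 10.36 with lovastatin and ezetimibe. It was higher in every LE array and rose 1.95-fold (0.96, SE 0.07, adjusted p = 9.61e-05). Rpa1, the large subunit of the single-strand binding protein, rose by 0.28 (SE 0.05). Dtl, which directs CDT1 to destruction, fell by 0.36 (SE 0.08) and the GINS subunit gene Gins4 by 0.29 (SE 0.07). The Dtl call was lost without LE2 or LE3 (range of adjusted p over the alternatives 0.00388 to 0.0829), and the Gins4 call without CH1, CH2, LE1 or LE2 (4.91e-04 to 0.123).

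Of 69 further mitosis genes 65 were not past the test, 3 were lower (4.35%, beside 5.08% of all genes) and 1 was higher, and the median was -0.05. Cenpm, which encodes a kinetochore protein, read 8.27, 8.28 and 8.16 against 9.05, 8.92 and 9.01. It rose 1.69-fold (0.76, SE 0.06, adjusted p = 1.29e-04) with no overlap, opposite to the falls of Ccnb2 and Birc5. Spc25, of the NDC80 kinetochore complex, fell by 0.48 (SE 0.08), the cytokinesis exchange factor Ect2 by 0.35 (SE 0.07) and the condensin subunit gene Smc4 by 0.28 (SE 0.07). The Smc4 call was lost without any 1 array (adjusted p 0.0102 to 0.125 among the alternatives), and the Ect2 call without CH3, LE2 or LE3 (0.00254 to 0.081). With each array centred on its median 8 of the 69 fell, and without CH3 or LE2 1 fell.

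Of 27 regulators of the cycle 22 were not past the test, 2 were lower (7.41%, beside 5.08% of all genes) and 3 were higher (11.1%, beside 7.01%). E2f8, an atypical E2F repressor active in liver polyploidy, read 7.90, 7.79 and 7.96 against 7.33, 7.34 and 7.47. E2f8 fell by 0.50 (SE 0.06, adjusted p = 0.00198) with no overlap. Myc rose by 0.34 (SE 0.07, adjusted p = 0.0135), Cdk6, a partner kinase of the D cyclins, by 0.25 (SE 0.06, adjusted p = 0.0263), and the E2F partner gene Tfdp2 fell by 0.23 (SE 0.06, adjusted p = 0.0401). Leaving out LE2 or LE3 ended the Myc call (0.000810 to 0.0587 over the alternatives), and leaving out any 1 array ended those of Cdk6 (1.31e-04 to 0.0821) and Tfdp2 (0.00532 to 0.121). None of the 7 measured CDK inhibitor genes passed limma's test, with 1 at an unadjusted p below 0.05 and 0 called in any alternative. Cdkn3 was at 0.23 (95% interval 0.03 to 0.42) and Cdkn1b at 0.11 (-0.03 to 0.25), while Cdkn1a shares its probe set with another gene and was not used here.

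Of 22 targets of p53, the DNA damage factor that can halt the cycle, 5 rose (22.7%, beside 7.01% of all genes). Another 2 fell (9.09%, beside 5.08%) and 15 did not pass, and the median was 0.05. The death receptor gene Tnfrsf10b read 6.30, 6.48 and 6.54 against 7.47, 7.30 and 7.35, a rise of 0.94 (SE 0.08, adjusted p = 1.90e-04). All LE arrays were above the CH arrays. Sesn1, a stress-induced regulator of growth signalling, rose by 0.86 (SE 0.08), Trp53inp1 by 0.84 (SE 0.05) and the antiproliferative gene Btg2 by 0.84 (SE 0.08). Sesn2 rose by 0.35 (SE 0.07, limma adjusted p = 0.021). The 2 that fell were Fas, by 0.43 (SE 0.05, adjusted p = 0.00141), and Plk2, by 0.32 (SE 0.08, adjusted p = 0.0448). Fas passed in 16 of 16 alternatives, Sesn2 in 13 and Plk2 in 11. These genes also respond to factors other than p53.

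Among growth factors and receptors of hepatocytes, 3 of 17 rose (17.6%, beside 7.01% of all genes). Another 2 fell (11.8%, beside 5.08%) and 12 did not pass. Egfr, the receptor of epidermal growth factor, read 13.37, 13.33 and 13.34 against 12.99, 12.94 and 13.03, a fall of 0.36 (SE 0.05, adjusted p = 0.00250). Met, the receptor of hepatocyte growth factor, fell by 0.31 (SE 0.06, adjusted p = 0.0110). Both receptors were lower in all LE arrays. Tgfa, a ligand of EGFR, rose by 0.37 (SE 0.07, adjusted p = 0.0116; 3.74e-05 to 0.0509 over the alternatives, the highest without LE3), and the tumour necrosis factor receptor Tnfrsf1a by 0.58 (SE 0.06).

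In whole liver, a change in the number of dividing cells and a change of RNA per cell cannot be told apart, and dividing cells may be of several types. Hepatocyte markers matched the labelled tissue, with a mean level over 10 genes of 13.88 to 13.90 in the cholesterol arrays and 13.88 to 13.91 in the others, and 0 of the 10 passed limma's test (2 at an unadjusted p below 0.05). The cyberT-like test called 3 of the 10 higher and 1 lower, within -0.09 to 0.12. Some erythroid markers were also lower. Of 4 measured, 2 fell: Alas2, the haem synthesis enzyme of red cells, read 11.33, 11.30 and 11.32 against 10.55, 10.45 and 10.50, a fall of 0.82 (SE 0.05, adjusted p = 3.38e-05), and Klf1, a factor of red cell precursors, fell by 0.32 (SE 0.08, adjusted p = 0.0468). Hemgn (-0.06) and Epb42 (0.03) did not pass. The mean of the 4 was 8.04 to 8.10 on cholesterol and 7.70 to 7.81 with lovastatin and ezetimibe. Klf1 no longer passed when any array other than LE3 was left out (range of adjusted p 0.00638 to 0.127), and the part of red cell precursors in the mitosis genes was not tested.

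Markers of other cells that could divide were measured as well. Of 4 B cell markers 1 fell, Pax5 by 0.25 (SE 0.06, adjusted p = 0.0267; 0.0147 to 0.0925 over the alternatives, above 0.05 without any array other than LE3), and the list mean was 6.80 to 6.91 against 6.64 to 6.82. None of the 6 T cell, 6 neutrophil, 8 endothelial, 6 stellate cell and 5 cholangiocyte markers passed limma's test, where 1, 1, 2, 0 and 1 had an unadjusted p below 0.05 and the cyberT-like test called 0, 1, 2, 0 and 1 lower. Macrophage markers went the other way, with 9 of 10 higher (90.0%, beside 7.01% of all genes). Their median was 0.37 and their list mean 9.53 to 9.61 against 9.91 to 9.95. The 9 were Cd68 (0.55), Csf1r (0.47), C1qb (0.47), C1qa (0.41), Adgre1 (0.37), C1qc (0.36), Vsig4 (0.33), Marco (0.26) and Clec4f (0.23), while Cd5l (0.09) did not pass.

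**Figure D4:**
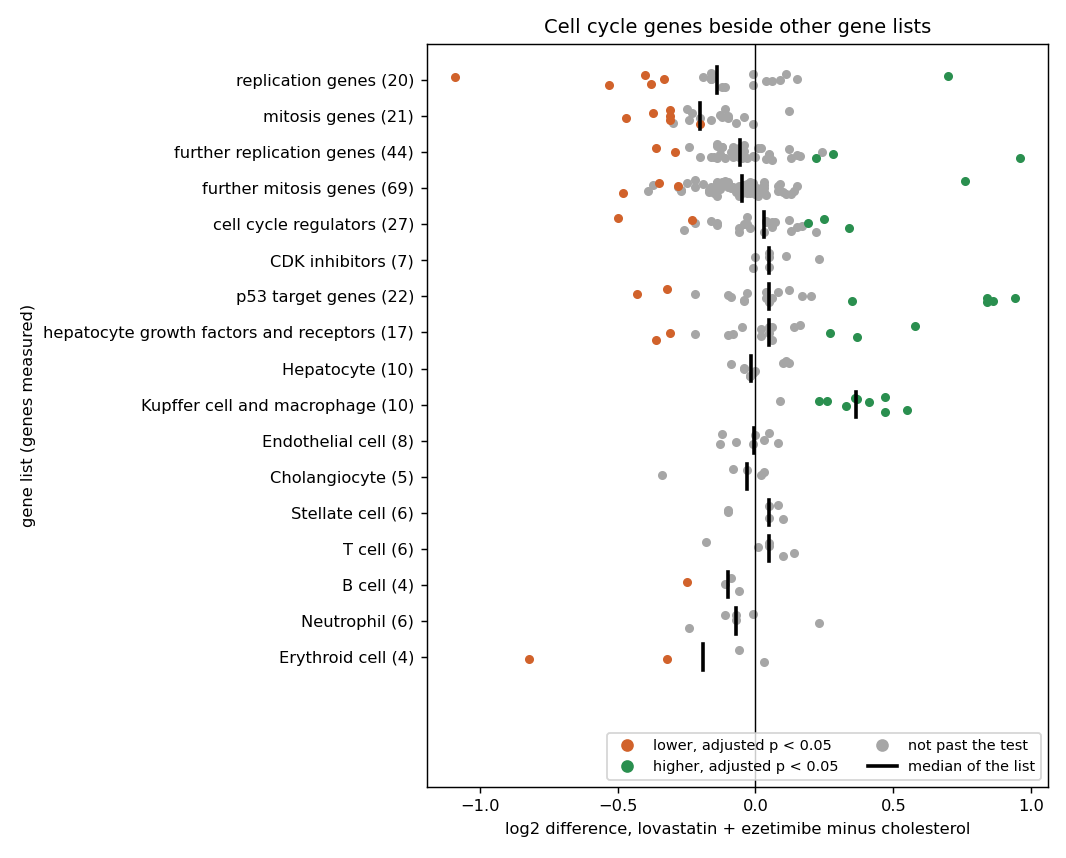
Log2 difference (x axis) of each measured gene in the cell cycle lists, the related lists and the cell type marker lists (y axis, genes measured in brackets); black bars are list medians and colours mark genes past the test. The mitosis genes have a median of -0.20 and the further mitosis genes of -0.05; macrophage markers lie to the right, and the erythroid genes Alas2 and Klf1 to the left.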

How the data were processed

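The deposited table holds probe set intensities on a linear scale, as its values show. How the authors corrected background, normalised and summarised them is not given in the sources used here. Per the labels' design text, Partek Genomics Suite and cyberT served the authors' own comparison. Array medians were 158 to 163. Of 35556 probe sets 21789 carried 1 gene symbol, 1621 several and 12146 none, and the brightest single-gene probe set stood for each gene. Dim genes' changes are understated on the log2(intensity + 1) scale. Without the added 1 the median of the members stayed at -0.16, with 11 lower. limma 3.58.1 in R 4.3.3 (lmFit and eBayes) compared the diets, two-sided, without a block, with intervals at 95%, and the fit was tested on simulated data. With 3 arrays a side, an exact permutation p could not fall below 0.1. The members and lists were chosen with earlier results of these data known. Named genes are all members and, from each of 6 other lists, the up to 4 largest changes that passed. Where none passed, the 2 smallest p-values were taken. Markers past the test, Hemgn, Epb42, Cd5l, Sesn2, Fas and Plk2 were named besides. Overlapping genes and printed promoters were chosen after values were seen. Deviations of arrays with equal replicate numbers correlated at -0.021, -0.097 and 0.16, beside -0.228 to 0.246 for unequal numbers. With 3 arrays per group such values cannot decide whether the numbers pair arrays. Alternatives were a replicate block, quantile normalisation, median centring, the brightest 13292 genes alone, the mean of probe sets, limma's intensity trend with robust prior, a cyberT-like test (window 101, weight 10), pseudocounts of 16 and none, leaving out each array, and cyclic loess, added after seeing the data.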

Additional observations from a re-analysis of the deposited data

How the results depend on the processing

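With the replicate number as a block, 7 members fell rather than 11, of them 3 mitosis genes rather than 6, and Ccne2, Cdk1, Bub1b and Ube2c lost their calls. Whether equal numbers pair the arrays is not known. Replication genes that fell numbered 8 rather than 5 after quantile normalisation and after cyclic loess. Leaving out each array in turn gave 7 to 10 members, 4 to 5 replication genes and 2 to 6 mitosis genes that fell. The median change of the members was -0.18 to -0.13 over all alternatives, and Ccnd1 was the member that rose in all of them. Signs turned for 4 members near 0 that never passed: leaving out 1 array at a time gave -0.03 to 0.01 for Mcm4, -0.05 to 0.15 for Cdt1, -0.07 to 0.03 for Rrm2 and -0.08 to 0.03 for Aurka. The cause was not tested. Among the brightest 13292 genes alone, 28 members were measured. Of all calls 58.0% were higher, against 47.7% after quantile normalisation and 48.4% after median centring. Over all genes 1012 were lower, against 657 with the block, 525 to 893 without 1 array, 1598 after quantile normalisation, 1560 with the intensity trend and 1678 in the cyberT-like test. Over the alternatives the genes called lower numbered 1 to 8 of the further mitosis genes (3 as reported), 0 to 2 of the further replication genes (2), 1 to 4 of the regulators (2), 1 to 2 of the p53 targets (2), 1 to 2 of the erythroid (2) and 0 to 1 of the B cell markers (1). Those called higher numbered 0 to 4 of the regulators (3), 1 to 4 of the growth factors and receptors (3) and 1 to 2 of the further mitosis genes (1). Low signal limits the 13 members not brighter than 95% of the receptor genes.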
